A study of Homo sapiens with 3 samples.

Results

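The comparison was between 2 stable SK-Hep-1 lines that carry different short hairpin RNAs against the same long noncoding RNA, LINC01089. The parent line, SK-Hep-1, was established from a human liver adenocarcinoma and has endothelial traits. Each hairpin was delivered by lentivirus, and the control line, shNC, received a negative control hairpin the same way. The members are 2 of the 3 samples, the library labelled sh1089-2 and the library labelled sh1089-1, and differences are given as sh1089-2 minus sh1089-1. All 3 lines share the cell background and the lentiviral vector, and each group is 1 line and 1 library. No spread between replicates can therefore be given, no test was run, and an effect of the hairpin, of the line and of the library cannot be told apart. The level of LINC01089 was not analysed here, so neither label was checked against its target.

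Lipid synthesis supplies most of the genes described first. Cells make cholesterol and fatty acids through enzymes whose genes are switched on by SREBP transcription factors. These factors are held in the endoplasmic reticulum by SCAP and the INSIG proteins when sterols are plentiful and are released to the nucleus when sterols run low. The liver is a main site of both pathways, and many cancer cells keep them active. TXNIP, tissue plasminogen activator (PLAT) and the keratin KRT81, the other genes singled out for the comparison, belong to sugar sensing, clot dissolution and the epithelial skeleton.

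The libraries were strand-specific and were made from mRNA enriched out of Trizol-extracted RNA. Values are the deposited FPKM, which divide the fragments of a gene by its length and by the depth of the library. The tables give 8359832 reads for sh1089-2 and 9528312 for sh1089-1, beside 10698480 for shNC, with 94.85% to 95.3% of them in listed genes. Mitochondrial genes took 5.10% of reads in sh1089-2 and 4.69% in sh1089-1. The labels call the source liver. Of 12 listed hepatocyte markers, 10 lay below 1 FPKM in every library, with APOA1, TTR and FGB listed at 0. Of 16 listed endothelial markers, 11 did, PECAM1, CDH5 and VWF among them, while ENG stood at 42.8 FPKM in sh1089-2 and 48.8 in sh1089-1. The summed hepatocyte list came to 9 to 9.41 FPKM in shNC and sh1089-2 and 8.10 in sh1089-1, and the summed leukocyte list to 2.03 to 2.62 FPKM over the 3 libraries.

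Of 16858 protein-coding genes listed, 10313 had a mean of at least 1 FPKM over the 3 libraries and were compared. A gene can pass this filter through a high value in 1 library alone, and its difference is then partly fixed by the filter. The difference is taken in log2(FPKM + 1), where 1 is 2-fold and 0.585 is 1.5-fold. The added 1 understates the change of low genes, so ratios of FPKM without it are printed beside it. Counts of genes past a fold keep the added 1 throughout, so a low gene can exceed 1.5-fold in FPKM and not be counted. The hairpin libraries were close to each other in most genes. The median difference was -0.01, with the fifth percentile at -0.39 and the 95th at 0.39. In all, 97.8% of the genes lay within 1.5-fold. At 2-fold, 11 genes (0.107%) were higher in sh1089-2 and 8 (0.0776%) were lower. At 1.5-fold the counts were 126 (1.22%) and 104 (1.01%), and after rescaling each library to TPM they were 305 and 150. That rescaling raises every value against the added 1 and also shifts the libraries against each other, taking the median difference from -0.01 to 0.03. Against shNC, 157 genes (1.52%) stood at least 2-fold apart in sh1089-1 and 175 (1.7%) in sh1089-2. For the counts in the gene lists below, the shares over all genes were 1.22% higher and 1.01% lower at 1.5-fold. Above 0 lay 47.8% of all genes.

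**Figure D1:**
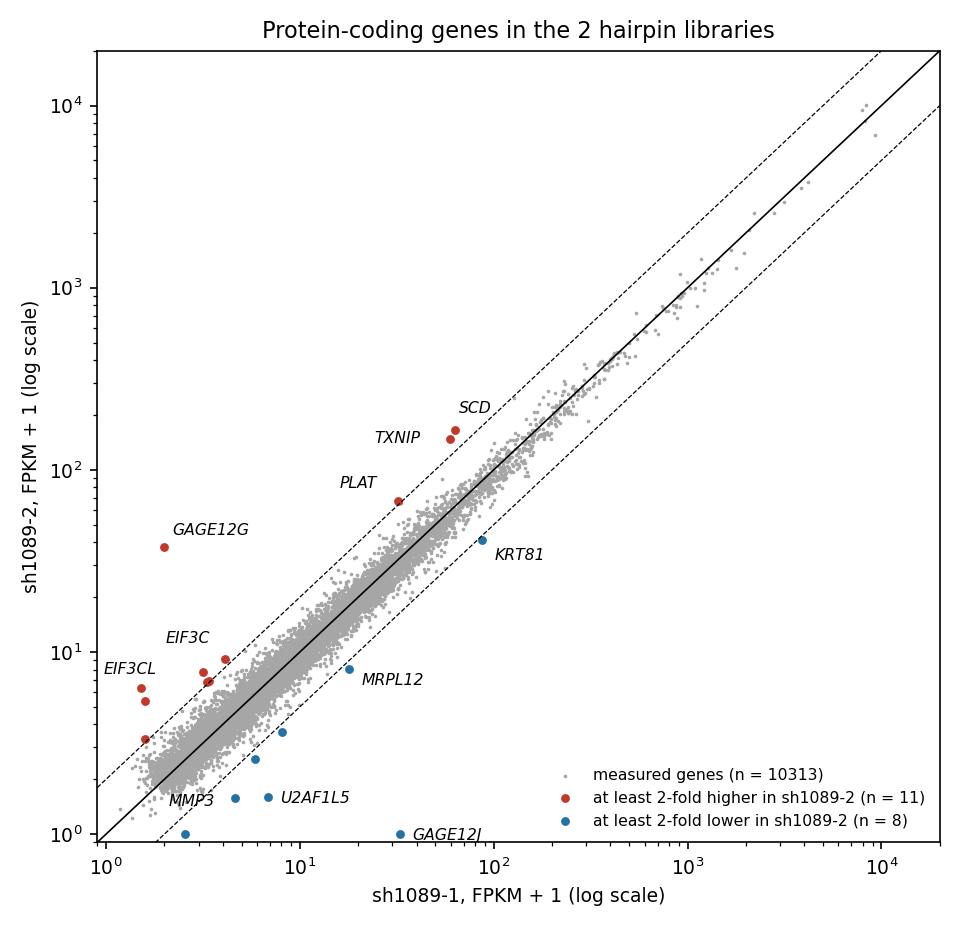
Level of each of 10313 protein-coding genes in sh1089-1 (horizontal) and sh1089-2 (vertical), as FPKM + 1 on log axes, 1 library each. The solid line marks equal levels and the dashed lines 2-fold; 11 genes lie on or above the upper dashed line and 8 on or below the lower one.

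The 11 genes at least 2-fold higher were SCD, TXNIP, PLAT, EIF3C, EIF3CL, OLFML2A, PIGBOS1, GAGE12G, LCE1F, ARC and C14orf178. LCE1F, ARC and C14orf178 rested on fewer than 100 reads over the 3 libraries, and PIGBOS1 and C14orf178 share exons with a gene on the same strand. The 8 genes at least 2-fold lower were KRT81, MMP3, MRPL12, EEF1AKMT4, RAB5IF, U2AF1L5, GAGE12J and GAGE2E. MMP3 and GAGE2E rested on fewer than 100 reads, and MRPL12, EEF1AKMT4 and RAB5IF share exons on the same strand. EIF3C, EIF3CL, U2AF1L5, KRT81 and the GAGE genes have near-identical copies, taken up further on. That leaves SCD, TXNIP, PLAT and OLFML2A as single-copy genes on 100 reads or more, all 4 higher in sh1089-2.

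SCD, stearoyl-CoA desaturase, puts the first double bond into saturated fatty acids. The gene lies on chromosome 10 from 100347124 to 100364834 on the plus strand of GRCh38. Its level was 48.3 FPKM for shNC, 61.9 for sh1089-1 and 164 for sh1089-2, on 2709, 3095 and 7211 reads. The sh1089-2 library was the highest, and sh1089-1 was 1.28-fold above the control (95% interval 1.22 to 1.35). The ratio between the hairpin libraries was 2.66 (95% interval 2.55 to 2.77). Intervals here are Clopper-Pearson intervals on the reads and cover counting error only, not the spread between lines or libraries. The reads carry no molecular identifiers, so repeated reads of the same molecule count separately and the intervals may be too narrow. In a bulk library, more cells with a gene on and more RNA per cell cannot be told apart. INSIG1 encodes one of the proteins that hold back SREBP and is itself a target of it. It spans 155297776 to 155310235 of chromosome 7, with 16.1, 32.4 and 64.4 FPKM across shNC, sh1089-1 and sh1089-2, so each library stood above the one before. INSIG1 was 1.99-fold higher in sh1089-2 than in sh1089-1 (1.85 to 2.14).

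The promoters of SCD and INSIG1 are shown because these genes head the lipid group. Each is the 250 bases before the transcript start in RefSeq, build GRCh38.p14, printed in the direction of the gene. Capitals mark CCAAT, or ATTGG where it lies on the opposite strand, the letters bound by NF-Y, a common partner of SREBP.
SCD, chr10:100346983-100347232, plus strand: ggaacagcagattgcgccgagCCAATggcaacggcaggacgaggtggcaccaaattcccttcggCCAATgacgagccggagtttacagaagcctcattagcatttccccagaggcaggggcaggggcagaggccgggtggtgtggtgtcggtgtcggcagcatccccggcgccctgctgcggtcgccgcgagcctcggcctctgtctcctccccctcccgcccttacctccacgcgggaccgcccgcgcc
INSIG1, chr7:155297628-155297877, plus strand: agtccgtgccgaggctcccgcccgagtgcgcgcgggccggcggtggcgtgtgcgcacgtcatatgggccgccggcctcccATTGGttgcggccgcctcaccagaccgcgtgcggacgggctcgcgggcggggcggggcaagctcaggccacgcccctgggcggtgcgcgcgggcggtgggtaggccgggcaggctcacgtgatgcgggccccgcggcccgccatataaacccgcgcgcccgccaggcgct
In SCD the matches lie 229 to 225 and 186 to 182 bases before the start, and in INSIG1 the match lies 170 to 166 bases before it. For the shares that follow, every motif was searched on both strands, over 250 bases before the start and 50 after it. Of the 47 measured genes of the lipid lists below, 40 had a promoter in the table, and FASN did not. CCAAT was in 65% of these 40 promoters and in 35.7% of 27305 promoters in the table. It was in 38.6% of the promoters of genes at least 1.5-fold higher and in 48.8% of those at least 1.5-fold lower. The sterol element TCACNCCAC, N being any base, was in 1 of the 40, that of SREBF2, and in 1.15% of all promoters. TGACNNNGC was in 10% of the 40 and in 13.6% of all. A match is a description of letters, not a binding site or a cause.

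The other enzymes of fatty acid synthesis were ordered by their step. ACLY, which makes acetyl-CoA from citrate, had 89.5, 99 and 140 FPKM across shNC, sh1089-1 and sh1089-2. ACACA, acetyl-CoA carboxylase, had 6.66, 7.73 and 12.2 FPKM, and both enzymes were highest in sh1089-2 with sh1089-1 close to the control. FASN, the fatty acid synthase (chromosome 17, 82078333 to 82098332, minus strand), had 70.2, 127 and 248 FPKM on 7004, 11264 and 19334 reads. Its ratio between the hairpin libraries was 1.96 (1.91 to 2.00), which missed 2-fold. FADS2, a desaturase of polyunsaturated fatty acids, had 1.36, 2.72 and 4.19 FPKM, and FADS1, which acts after it, had 8.59, 9.38 and 11.8. Both desaturases followed the order shNC, sh1089-1, sh1089-2. The elongase ELOVL1 went the other way, with 94.0, 75.8 and 68.6 FPKM, and ME1, malic enzyme, a source of NADPH for the pathway, had 9.35, 8.08 and 7.27. Of 16 measured genes, SCD, FASN and ACACA were at least 1.5-fold higher in sh1089-2 and none was lower. The list had 13 members above 0 and a median of 0.25. Among all 10313 genes 47.8% were above 0 and the median was -0.01.

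Sterol synthesis genes lay higher in sh1089-2 over most steps of the pathway, though none reached the ratio of SCD. HMGCS1, HMG-CoA synthase, had 5.53, 4.89 and 9.98 FPKM across shNC, sh1089-1 and sh1089-2, a ratio of 2.04 (1.77 to 2.35) between the hairpin libraries. FDFT1, squalene synthase, had 19.2, 31.0 and 49.2 FPKM, a ratio of 1.59 (1.49 to 1.70). Both enzymes were highest in sh1089-2, and FDFT1 also stood well above shNC in sh1089-1 where HMGCS1 did not. SQLE, squalene epoxidase, had 19.4, 16.7 and 23.7 FPKM. LSS, the cyclase after it, had 10.5, 18.1 and 22.1, and DHCR7, the last enzyme of one branch, 11.8, 19.7 and 23.9. These later steps differed less between the hairpin libraries than HMGCS1 or FDFT1. EBP, a sterol isomerase, was the exception in the opposite direction, with 5.02, 11.7 and 7.37 FPKM, 1.59-fold lower in sh1089-2 (1.25 to 2.02). PMVK, phosphomevalonate kinase, also lay lower, at 33.0, 31.9 and 22.2 FPKM, and ACAT2 had 18.1 FPKM in both hairpin libraries. Of 19 measured genes HMGCS1 and FDFT1 were at least 1.5-fold higher and EBP was lower. The list had 15 members above 0 and a median of 0.27. CYP51A1, the remaining gene of the list, was below the level filter, on 26, 46 and 18 reads.

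Among the genes that control SREBP or answer to it, INSIG1, given above, and LPIN1 differed more than the factors themselves. LPIN1, a phosphatidate phosphatase and SREBP target, had 3.54, 3.35 and 6.46 FPKM across shNC, sh1089-1 and sh1089-2, a ratio of 1.93 (1.70 to 2.19). LPIN1 was high in sh1089-2 alone, while INSIG1 stepped up from library to library. SREBF1 and SREBF2, which encode the SREBP factors, had ratios of 1.28 (1.22 to 1.35) and 1.31 (1.22 to 1.40). SCAP, the escort protein, had 22.1, 19.7 and 19.0 FPKM, and INSIG2 had 4.09, 3.51 and 2.66, lowest in sh1089-2 where INSIG1 was highest. Of 12 measured genes 3 were at least 1.5-fold higher, INSIG1 and LPIN1 among them, and none was lower, with 9 above 0 and a median of 0.32. Over the 47 measured genes of the lipid lists together, 8 were at least 1.5-fold higher and 1 was lower, 37 were above 0 and the median was 0.29. The 3 lists had medians of 0.33, 0.18 and 0.02 in sh1089-1 minus shNC and of 0.59, 0.39 and 0.35 in sh1089-2 minus shNC, in the order sterol, fatty acid, SREBP. Both of those differences use the same shNC library.

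**Figure D2:**
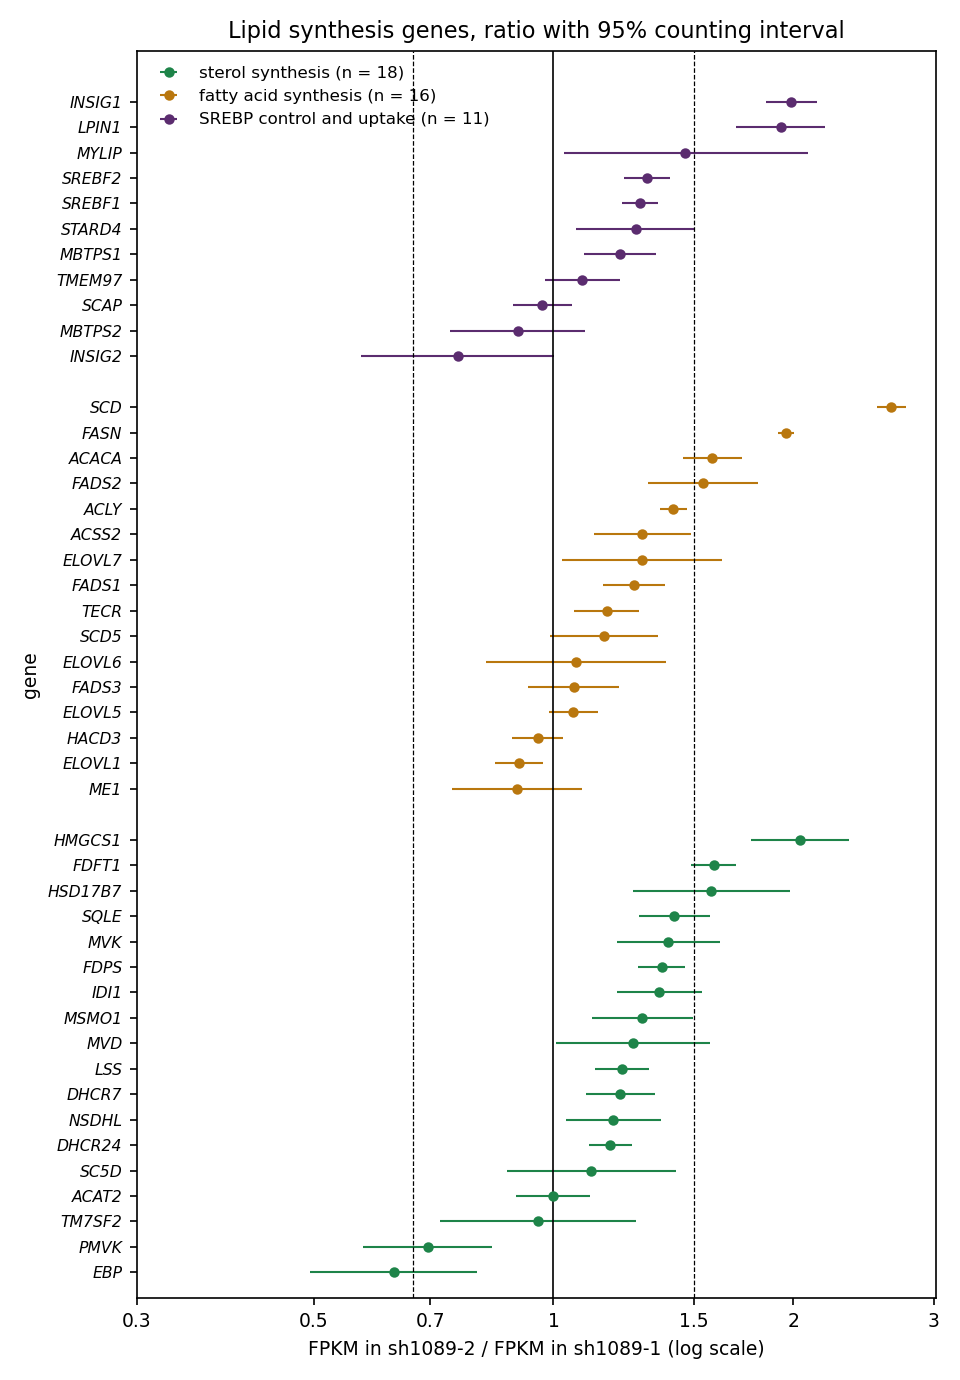
Ratio of FPKM in sh1089-2 to FPKM in sh1089-1 on a log axis for 45 of the 47 measured lipid genes, 1 library each. Points are ratios, bars are 95% counting intervals, the solid line is 1 and the dashed lines are 1.5-fold; SCD lies farthest right at 2.66 and EBP farthest left.

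Most genes of sterol export also lay higher in sh1089-2, and those of lipid storage differed less. NPC1, which moves cholesterol out of lysosomes, had 49.0, 26.9 and 41.1 FPKM across shNC, sh1089-1 and sh1089-2 and was the 1 of 8 measured export genes past 1.5-fold. APOE, an apolipoprotein, had 11.1, 5.02 and 7.66 FPKM. ABCA1, the main exporter, had 1.08, 0.568 and 0.850, below the level filter and so outside the 8. In these 3 genes sh1089-1 was lowest and shNC highest, an order unlike that of the synthesis genes. The export list had 7 of 8 above 0 and a median of 0.35. In the storage and uptake list of 15 measured genes, LPIN1 alone passed 1.5-fold and the median was 0.09. LIPE, hormone-sensitive lipase, had 0.417, 0.956 and 1.78 FPKM, and PLIN2, a lipid droplet coat protein, 9.70, 7.20 and 6.52. LIPE, APOE and FADS2 exceeded 1.5-fold in FPKM, and the added 1 kept them out of the counts. LIPE passed the level filter only through its value in sh1089-2.

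TXNIP encodes thioredoxin-interacting protein, which restrains glucose uptake and is switched on by the sugar sensor MondoA (MLXIP) with its partner MLX. The gene is on the minus strand of chromosome 1, from 145992435 to 145996600. It had 82.7 FPKM for shNC, 58.3 for sh1089-1 and 147 for sh1089-2, on 3208, 2012 and 4442 reads. Unlike SCD, it placed the hairpin libraries on opposite sides of the control. The ratio of sh1089-2 to sh1089-1 was 2.52 (2.39 to 2.65). The promoter is shown for its E-box pair, the layout through which MondoA is known to act. Capitals mark CACGNG, 5 bases of any kind and CACGNG.
TXNIP, chr1:145996580-145996829, minus strand: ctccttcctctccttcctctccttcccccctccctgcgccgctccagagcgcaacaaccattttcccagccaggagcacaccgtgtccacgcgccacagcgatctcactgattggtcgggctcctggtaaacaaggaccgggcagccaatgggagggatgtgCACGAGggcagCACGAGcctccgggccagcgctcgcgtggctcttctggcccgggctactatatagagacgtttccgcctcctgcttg
The pair lies 88 to 72 bases before the RefSeq start. It was in 20 of 27305 promoters (0.0732%). Among genes past 1.5-fold it was in 1 promoter of the higher group, TXNIP, and in 1 of the lower group, ATP5ME, a subunit gene of ATP synthase with 34.3, 49.4 and 26.7 FPKM.

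No other measured gene of the list around TXNIP differed as much as TXNIP. ARRDC4, the arrestin-domain relative with the closest regulation, had 17.1, 12.9 and 17.9 FPKM across shNC, sh1089-1 and sh1089-2, a ratio of 1.39 (1.23 to 1.56). ARRDC3 had 2.44, 1.39 and 1.37 FPKM. TXNIP was thus the member farthest apart, ARRDC4 had the same order at a smaller size, and ARRDC3 was level between the hairpins. MLXIP had 5.10, 5.71 and 5.25 FPKM and MLX 19.2, 21.1 and 19.9. TXN, thioredoxin, to which TXNIP binds, had 356, 348 and 297. Of 11 measured genes of the list, TXNIP alone passed 1.5-fold, 4 were above 0 and the median was -0.07. In the glycolysis list SLC2A3, a glucose transporter, was the 1 of 20 past 1.5-fold, with 31.0, 13.7 and 23.3 FPKM, and SLC2A1, the transporter most cells rely on, had 59.3, 53.3 and 46.4. That list had 6 members above 0 and a median of -0.09.

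PLAT encodes tissue plasminogen activator, a secreted protease that turns plasminogen into plasmin on clots. It is on the minus strand of chromosome 8, from 42175233 to 42207724. The level was 13.4 FPKM for shNC, 31.2 for sh1089-1 and 66.6 for sh1089-2, on 952, 1967 and 3682 reads. It stepped up from library to library, as INSIG1 did, with a ratio of 2.13 (2.02 to 2.25) between the hairpin libraries. PLAU, the urokinase-type activator, had 105, 92.9 and 112 FPKM, and its receptor PLAUR had 31.5, 22.0 and 23.4. SERPINE2, an inhibitor of serine proteases, had 68.4, 33.0 and 41.4 FPKM. ANXA2, which helps bind plasminogen at the cell surface, had 215, 232 and 295. These genes had differences of 0.34 or less where PLAT had 1.07. PLAT was the 1 of 17 measured members past 1.5-fold, 12 were above 0, and the list median was 0.09, or 0.22 among members with a mean of at least 5 FPKM.

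**Figure D3:**
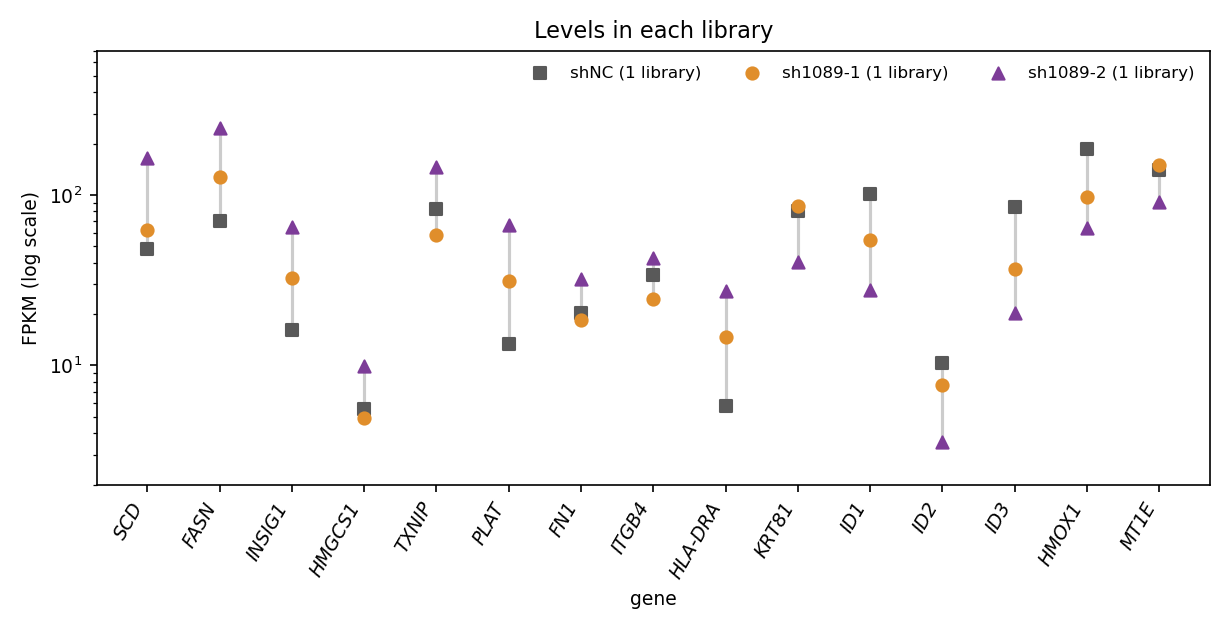
FPKM on a log axis of 15 genes in the shNC, sh1089-1 and sh1089-2 libraries, 1 library each, joined by a grey line per gene. The sh1089-2 library is highest in the first 9 genes and lowest in the last 6, and shNC lies between the hairpin libraries in TXNIP but below both in SCD.

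KRT81 encodes a hair keratin that some carcinomas also make. It spans 52285913 to 52291534 of chromosome 12, with 80.0, 86.3 and 40.4 FPKM across shNC, sh1089-1 and sh1089-2, on 1651, 1587 and 651 reads. The sh1089-2 library was the low one, 2.14-fold under sh1089-1 (1.95 to 2.35). KRT86 and KRT83 are close relatives next to it that can share reads, so KRT81 alone is uncertain. Summed over the 3 genes the reads were 1861, 1630 and 670, again 2.13-fold lower in sh1089-2 (1.95 to 2.34). KRT8, KRT18 and KRT19, abundant keratins of simple epithelia, were level between the hairpin libraries. KRT18 had 1244 FPKM in sh1089-1 and 1203 in sh1089-2, KRT8 had 889 and 893, and KRT19 had 441 in each. KRT7, also of simple epithelia, had 13.2, 5.75 and 3.89 FPKM and was 1.48-fold lower in sh1089-2 (1.18 to 1.85), and KRT10 had 11.3, 17.4 and 12. KRT81 was the 1 of 10 measured keratins past 1.5-fold, 3 were above 0 and the median was -0.19, and close to 0 without the filter on level. Of 11 measured junction genes, JUP, plakoglobin, was higher, at 12, 12.3 and 20.2 FPKM, and the median was 0.09. CDH1, E-cadherin, lay below 0.12 FPKM in every library.

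The inhibitor of differentiation genes were lower in sh1089-2. ID1, ID2 and ID3 encode helix-loop-helix proteins that block other transcription factors and are classic targets of BMP signalling. ID1 had 101, 54.7 and 27.8 FPKM across shNC, sh1089-1 and sh1089-2, 1.97-fold lower in sh1089-2 than in sh1089-1 (1.71 to 2.27). ID2 had 10.3, 7.64 and 3.57 FPKM, 2.14-fold lower (1.60 to 2.90). ID3 had 85.0, 37.0 and 20.2 FPKM, 1.83-fold lower (1.57 to 2.13). All 3 stepped down from shNC to sh1089-1 to sh1089-2, the mirror image of INSIG1 and PLAT. SMAD6, an inhibitory SMAD of the same pathway, had 1.01, 0.724 and 0.433 FPKM and was 1.67-fold lower in sh1089-2 (1.06 to 2.67), below the level filter. SMAD7, the other inhibitory SMAD, had 2.06, 1.21 and 1.33. The receptors and ligands were not lower together with them. BMPR2 had 5.11, 2.42 and 3.24 FPKM, BMP4 3.50, 4.54 and 4.06, and TGFB1 76.6, 84.0 and 91.8. ID1, ID2 and ID3 were the 3 of 17 measured genes of the TGF-beta and BMP list past 1.5-fold, 8 were above 0 and the median was -0.02.

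Matrix genes leaned higher in sh1089-2 by small amounts. FN1, fibronectin, had 20.2, 18.5 and 32.1 FPKM across shNC, sh1089-1 and sh1089-2, a ratio of 1.74 (1.66 to 1.82). It was counted in the mesenchymal list, where it was the 1 of 13 past 1.5-fold, with 8 above 0 and a median of 0.08. VIM, vimentin, of the same list, had 922, 1171 and 1445. ITGB4, the integrin of hemidesmosomes, had 34, 24.6 and 42.8 FPKM, a ratio of 1.74 (1.63 to 1.85), and was the 1 of 10 measured integrins past 1.5-fold. ITGB1, the most shared integrin chain, had 68.1 and 68.7 FPKM in the hairpin libraries. So FN1 and ITGB4 stood out while the other integrins were near level, with a median of 0.09. SPARC had 312, 230 and 308 FPKM, LAMB1, a laminin chain, 37.6, 29.6 and 39.5, and CCN1 622, 539 and 728. In these 3 the sh1089-1 library was the low one. None of 24 measured genes of the matrix list passed 1.5-fold, 21 were above 0 and the median was 0.26. Among all genes 1.22% were at least 1.5-fold higher and 47.8% were above 0. Of 13 proteases and inhibitors MMP3, stromelysin, was 6.24-fold lower (3.09 to 14.3), on 23, 64 and 9 reads. TIMP2 had 61.6, 39.2 and 58.1 FPKM and MMP14, a membrane-bound protease, 65.8, 49.3 and 69.5. In the Notch list DLL1, a ligand, was the 1 of 13 past 1.5-fold, with 0.636, 0.660 and 1.72 FPKM on 26, 24 and 55 reads. DLL1 passed the level filter only through its value in sh1089-2, so its place among the 13 is partly fixed by that value. NOTCH2 had 18.4, 15 and 19.99 FPKM, and the list median was 0.36 with 10 above 0, or 0.22 without the filter on level.

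Immune genes were higher in sh1089-2 in the class II antigen presentation group. HLA-DRA, a class II chain, had 5.79, 14.8 and 27.2 FPKM across shNC, sh1089-1 and sh1089-2, a ratio of 1.84 (1.52 to 2.24). CD74, the invariant chain that guides class II molecules, had 6.82, 14.7 and 21.3 FPKM, a ratio of 1.45 (1.31 to 1.61). HLA-DPA1 had 0.813, 2.01 and 3.58 FPKM. The 3 genes share 1 order, lowest in shNC and highest in sh1089-2. CIITA, the master regulator of the group, had 1.93, 2.06 and 2.33 FPKM, with an interval of its ratio from 0.984 to 1.30. Of 9 measured class II genes, a list drawn up after their values were seen, HLA-DRA and HLA-DPA1 were past 1.5-fold, all 9 were above 0 and the median was 0.43, or 0.24 without the filter on level. Leukocytes also carry class II genes. Of 12 leukocyte markers 11 lay below 1 FPKM in every library, with LYZ listed at 0 and PTPRC on 1, 2 and 0 reads. Class I genes differed less. HLA-B, a heavy chain, had 42.7, 32.3 and 38.4 FPKM and B2M, the light chain, 86.3, 70.2 and 78.7. None of 15 class I genes passed 1.5-fold, and the median was 0.16. Most interferon-induced genes lay slightly higher in sh1089-2. OAS2, a sensor of double-stranded RNA, had 1.42, 2.16 and 4.33 FPKM, a ratio of 2.01 (1.61 to 2.51), and was the 1 of 25 past 1.5-fold. ISG15 had 386 and 384 FPKM and IFIT1 50.1 in both hairpin libraries. The list had 20 members above 0 and a median of 0.21. Among all genes 1.22% were at least 1.5-fold higher and 47.8% were above 0. EIF2AK2, the kinase PKR that double-stranded RNA activates, had 6.21, 5.65 and 6.43 FPKM.

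Genes of ribosome assembly and protein import into mitochondria leaned lower in sh1089-2. Both lists were drawn up after the values were seen. LTV1, an assembly factor of the small subunit, had 3.28, 4.81 and 2.07 FPKM across shNC, sh1089-1 and sh1089-2, PAK1IP1 34.1, 43.1 and 26.6, and RPF2 6.22, 6.85 and 3.90. NPM1, nucleophosmin, had 285, 334 and 250 FPKM. In these 4 genes sh1089-1 was highest. LTV1, RPF2 and PAK1IP1 were the 3 of 29 measured assembly genes past 1.5-fold, 1 member was above 0 and the median was -0.32. In the import list HSPE1, a mitochondrial chaperonin, had 12.2, 14.5 and 8.33 FPKM, TOMM22, a receptor of the outer membrane, 41.0, 47.6 and 30.3, and TIMM17A, of the inner membrane, 22.3, 21.6 and 14.1. They were the 3 of 20 past 1.5-fold, 1 was above 0 and the median was -0.27. Among all genes 1.01% were at least 1.5-fold lower, 47.8% were above 0 and the median was -0.01. Ribosomal protein genes themselves differed little, with none of 49 past 1.5-fold and a median of -0.07. Nuclear genes of the respiratory chain had none of 28 past 1.5-fold and a median of -0.12.

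Splicing factors had a median of -0.20, with none of 24 past 1.5-fold and 5 above 0. SRSF1 had 7.96, 12.6 and 8.96 FPKM and SRSF3 19.7, 33.1 and 24.9, so that sh1089-2 lay nearer to shNC. S-phase genes were lower in sh1089-2 by small amounts. MCM2 and MCM5, subunits of the replicative helicase, had 36.1 and 24.5 FPKM in sh1089-1 and 27.8 and 18.9 in sh1089-2. None of 25 passed 1.5-fold, 2 were above 0 and the median was -0.15. Mitosis genes had no common direction. KIF20A, a kinesin of cell division, had 29.1 and 42.3 FPKM in sh1089-1 and sh1089-2, while MYBL2, a cell cycle transcription factor, had 98.9 and 76.4. Of 24 mitosis genes 11 were above 0, none passed 1.5-fold and the median was -0.01.

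**Figure D4:**
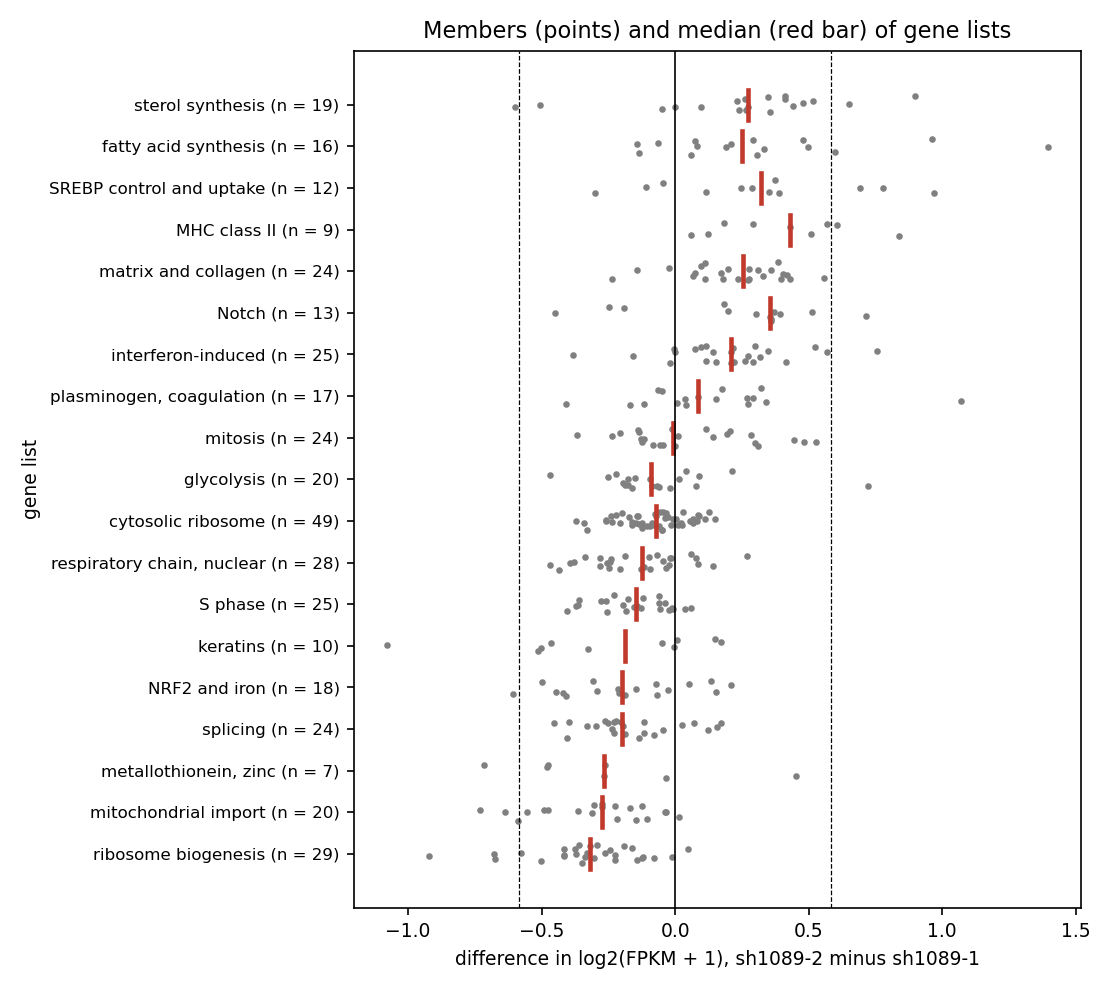
Difference in log2(FPKM + 1), sh1089-2 minus sh1089-1, for the measured members of 19 gene lists (grey points, 1 per gene) with the list median (red bar). Dashed lines mark 1.5-fold; the sterol, fatty acid and SREBP medians lie at 0.27, 0.25 and 0.32, and ribosome biogenesis lies lowest at -0.32.

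HMOX1 and MT1E were the iron and metal genes farthest apart, both lower in sh1089-2. HMOX1, heme oxygenase, had 185, 97.4 and 63.6 FPKM across shNC, sh1089-1 and sh1089-2, 1.53-fold lower between the hairpin libraries (1.43 to 1.64). FTH1, the ferritin heavy chain, was 1.41-fold lower (1.38 to 1.45), but ferritin genes have many processed copies that can share reads. HMOX1 was the 1 of 18 measured genes of the NRF2 and iron list past 1.5-fold, 4 were above 0 and the median was -0.20. GSR and TXNRD1, reductases of the same response, had ratios of 1.10 (0.995 to 1.22) and 1.16 (1.13 to 1.18). MT1E, a metallothionein, had 141, 150 and 91.1 FPKM, 1.65-fold lower (1.51 to 1.80). MT2A, its abundant relative, was 1.39-fold lower (1.36 to 1.43). SLC39A10, a zinc importer, was the 1 of 7 measured genes of that list above 0, and the median was -0.26. Of 18 heat shock genes HSPE1 and HSPA1A were past 1.5-fold, both lower, with HSPA1A at 79.8, 52.2 and 32.5 FPKM. HSPA1A has a near-identical neighbour that can share reads. Of 20 inflammatory genes IL11 and CXCL8 were past 1.5-fold, both lower. IL11 had 1.15, 4.98 and 2.14 FPKM on 33, 127 and 48 reads, and CXCL8 had 16.3, 8.81 and 5.24. CCL5, a chemokine, lay on the other side with 132, 189 and 269 FPKM. CHAC1, a glutathione-degrading enzyme, was the 1 of 20 genes of the ATF4 list past 1.5-fold, at 4.38, 10.2 and 6.18 FPKM. DUSP4, a phosphatase that acts on ERK, was the 1 of 24 early response genes past 1.5-fold, at 4.40, 3.15 and 1.74.

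Genes with near-identical copies gave the largest single differences, and their values are uncertain because reads can be divided between copies. EIF3CL, U2AF1L5, GAGE12J and GAGE12G passed the level filter only through the library where they were high, so their differences are partly fixed by the filter. EIF3C, a subunit of the initiation factor eIF3, had 145 reads in sh1089-1 and 393 in sh1089-2, and its copy EIF3CL had 15 and 137. Summed, the pair had 431, 160 and 530 reads in shNC, sh1089-1 and sh1089-2, a ratio of 3.78 (3.16 to 4.53), so the sh1089-1 library was again the low one. U2AF1L5, a duplicate in GRCh38 of the splicing factor gene U2AF1, had 36, 617 and 56 reads, and U2AF1 had 6, 5 and 87. Their sum of 42, 622 and 143 reads was 3.82-fold lower in sh1089-2 (3.18 to 4.61) and 16.6-fold higher in sh1089-1 than in shNC. In FPKM across shNC, sh1089-1 and sh1089-2, U2AF1 had only 0.050, 0.047 and 0.94 and U2AF1L5 had 0.30, 5.8 and 0.60. Reads counted for neither copy would be missing from such a sum, so it may not measure the gene, and this was not tested. In the GAGE family of cancer-testis genes, GAGE12J had 0, 164 and 0 reads and GAGE12G had 3, 5 and 161. A count of 0 in sh1089-2 allows up to 0.359 RPM (3 reads of the total). The 6 listed GAGE genes together had 48, 177 and 172 reads, and their ratio of 1.11 (0.893 to 1.37) between the hairpin libraries was not distinguishable from 1 at this depth. NOMO1, one of 3 copies of a gene for an endoplasmic reticulum protein, had 18 FPKM in sh1089-1 and 31.8 in sh1089-2, and the 3 copies together differed 1.60-fold (1.51 to 1.70). MRPL12, a mitochondrial ribosomal protein, had 10.7, 17.0 and 7.11 FPKM and shares exons with another gene model on its strand.

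The remaining genes among the 25 highest and 25 lowest had lower levels. OLFML2A, a secreted matrix protein, had 4.24, 2.33 and 5.87 FPKM across shNC, sh1089-1 and sh1089-2, a ratio of 2.52 (2.07 to 3.08). DKK3, a secreted relative of Wnt inhibitors, had 20.03, 13.5 and 24.4 FPKM, a ratio of 1.81 (1.64 to 2.00). DEPP1, a FOXO target, had 8.25, 4.23 and 9.07 FPKM, and ICAM5, an adhesion molecule, 5.23, 3.04 and 6.29. In these 4 genes sh1089-1 was the low library and shNC lay in between. CHAT, choline acetyltransferase, had 2.64, 0.924 and 2.65 FPKM, and ASS1, an enzyme of the urea cycle, 5.18, 1.82 and 3.88. COL9A2, a collagen chain, was high in sh1089-2 alone, at 0.776, 0.772 and 2.16 FPKM on 35, 31 and 76 reads. COL9A2 passed the level filter only through that library. The others on the higher side were CCM2L, CCDC28A, FAM229A, RNF122, GNAZ, LDHD and PIGBOS1, each below 10 FPKM in every library.

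On the lower side, POLR2J, a subunit of RNA polymerase II, had 24.9, 36.1 and 18.7 FPKM across shNC, sh1089-1 and sh1089-2, 1.93-fold lower (1.64 to 2.28). It has close copies on chromosome 7 and is uncertain on that account. ATP5ME was 1.85-fold lower (1.57 to 2.19), TPRKB, part of a tRNA-modifying complex, had 7.99, 12.8 and 6.54 FPKM, and DSCC1, of a clamp loader for sister chromatid cohesion, 4.32, 7.85 and 3.99. In these 4 the sh1089-1 library was the high one and shNC lay nearer to sh1089-2. GDF9 had 19.7, 27.7 and 15.7 FPKM and overlaps UQCRQ, so its reads cannot be assigned with certainty if strand was not used in counting. The same limit holds for HMGCS1, DEPP1, ID2, ATP5ME and POLR2J, among others, which share exons with a gene on the opposite strand. RAB24, GNG5, LTV1, ZNF511 and AC017083.3 share exons with other genes on their own strand, as do EEF1AKMT4, RAB5IF and MRPL12. These are 8 of the 25 lowest genes (32%), against 1 of the 25 highest (4%) and 14.4% of all genes measured. ISL1, ANKRD55, OTUD6B, TAF1A and MSTO1 completed the lower group, with 0.764 to 4.09 FPKM in sh1089-2.

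The position of the control library beside the hairpin libraries was counted. As 1 library of another line, it cannot show which hairpin line stood apart. Of the 11 genes at least 2-fold higher, shNC lay between the hairpin libraries in 7 and below both in 4, and nearer to sh1089-1 in 8. Of the 8 lower, it lay between in 5, above both in 2 and below both in 1, and was nearer to sh1089-1 in 4. Ties were counted as between, as for GAGE12J, where shNC and sh1089-2 were both at 0. Among the 126 genes at least 1.5-fold higher, shNC lay between in 77, above both in 29 and below both in 20, nearer to sh1089-1 in 56 and to sh1089-2 in 70. Among the 104 lower, the counts were 70, 22 and 12, nearer to sh1089-1 in 59 and to sh1089-2 in 45. Over all 10313 genes measured, shNC lay above both in 4377 and below both in 3506. It was nearer to sh1089-1 in 4888 of them and to sh1089-2 in 5425. Genes far apart leave more room for a value in between, so 61.1% and 67.3% against 23.6% of all genes is a description only. SCD, FASN, INSIG1 and PLAT thus belonged to the genes with shNC below both, and TXNIP, HMGCS1, DKK3 and KRT81 to those with shNC in between.

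Gene length and base composition moved with the difference. Median differences ran from -0.10 in the shortest of 10 equal bins of genes to 0.05 in the longest. By share of G and C, again in 10 bins, they ran from -0.08 in the lowest to 0.07 in the fifth and -0.06 in the highest. The 104 genes at least 1.5-fold lower had a median length of 2201 bases and the 126 higher 3664, against 5015 over all genes measured. With the medians of the same bin of length and of G and C share taken off, an alternative chosen after the data were seen, 140 genes lay 1.5-fold or more above and 79 below. The list medians then were 0.30 for sterol, 0.16 for fatty acid and 0.36 for SREBP genes, 0.45 for class II, 0.19 for matrix, -0.29 for ribosome assembly and -0.25 for mitochondrial import. The part of length and base composition in single genes was not tested. Over 9173 runs of 50 neighbouring genes the medians ran from -0.17 on chromosome 9 to 0.16 on chromosome 20. Over chromosomes the medians ran from -0.05 to 0.03. The quartiles over single genes were -0.16 and 0.14, so the outermost runs lay at about the quartiles of all genes. Whether any stretch moved as a unit was not tested.

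**Figure D5:**
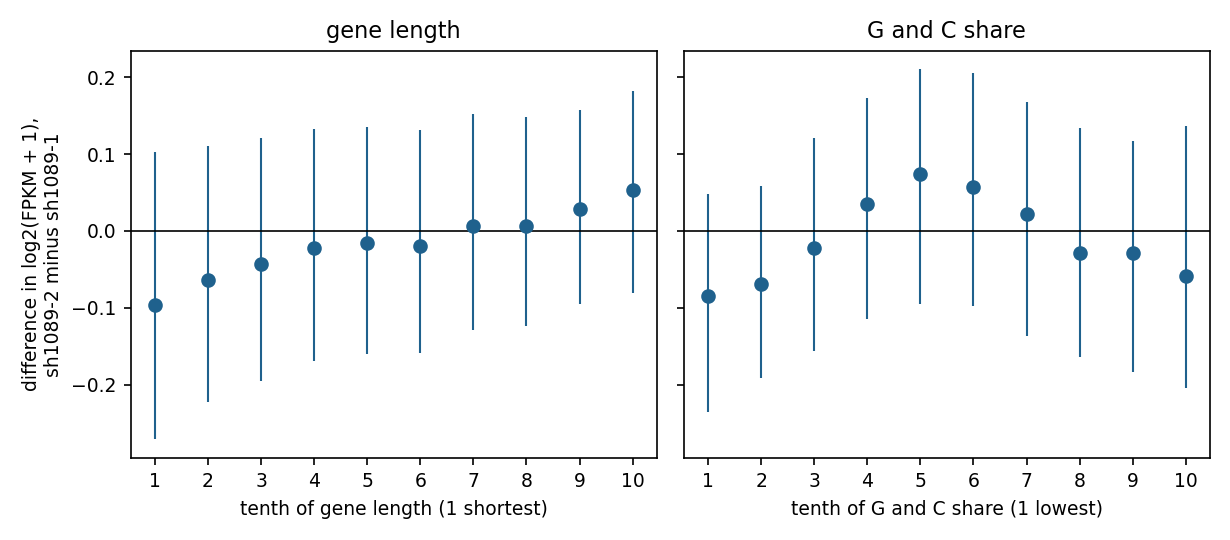
Median difference in log2(FPKM + 1), sh1089-2 minus sh1089-1, in 10 equal bins of gene length and of G and C share (points), with bars from the lower to the upper quartile of the genes in a bin, over 10313 genes. The medians run from -0.10 to 0.05 over length and peak at 0.07 in the fifth bin of G and C share.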

How the data were processed

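The authors deposited 1 table of FPKM values per gene for the 3 libraries. Per the submitters' processing notes, FastQC and StringTie were used with build GRCh38; for the aligner, the annotation release and the use of strand, the entry is: not given in the sources used here. Each FPKM was turned back into whole reads through the gene length and library total that the values imply, within a tolerance of 0.0001, and this succeeded for 19219 of 19219 genes (100%). Gene types and shared exons came from GENCODE 29, whose lengths equalled the implied ones in 61.98% of genes and lay within 5% of them in 93.46%, so shared exons are approximate; promoters came from RefSeq. Protein-coding genes with a mean of at least 1 FPKM were compared as log2(FPKM + 1), with 95% Clopper-Pearson intervals on reads. The text names the 25 largest differences each way on at least 100 reads, SCD, TXNIP, PLAT, KRT81, list members at least 1.5-fold apart and a few others per list fixed by level; some members of the lists are counted but not reported here by name. The comparison and 46 gene lists were chosen with earlier results of these data known, and 3 lists and the gene families after values were seen. Alternatives were other pseudocounts, TPM, median-ratio scaling and other filters. Code was tested on simulated data (Python 3.11.15, pandas 2.3.3, numpy 2.4.6, scipy 1.17.1, matplotlib 3.10.9).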

Additional observations from a re-analysis of the deposited data

How the results depend on the processing

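The counts of genes depend on the added constant and the filter, by construction. The 126 genes at least 1.5-fold higher were low, with a median level of 3.51 FPKM. The 104 lower had 6.07, close to the 6.76 of all genes measured. With 0.1 added in place of 1, 46 genes lay 2-fold or more above and 32 below, and 324 and 241 at 1.5-fold. With 0.5 added the counts were 25, 20, 198 and 169, in the same order. In TPM they were 41 and 21 at 2-fold and 305 higher at 1.5-fold, with INSIG1, HMGCS1 and FASN among the genes then past 2-fold, at 1.03, 1.03 and 1.01. Without a filter 17 genes were 2-fold higher. At a mean of at least 5 FPKM the counts were 5, 4, 45 and 59, and over all gene types 94, 99, 277 and 258. Leaving out genes that share exons on their strand, chosen after seeing the data, gave 5 genes 2-fold lower. The hepatocyte list, with 2 measured genes and a median of 0.12, changed sign to -0.028 with 0.1 added and to -0.038 without a filter, and the stromal list (0.15) to -0.027 without shared exons; the cause was not tested. The class II median, 0.43, was 0.24 without a filter, 0.29 at a mean of at least 5 FPKM and 0.57 in TPM. Over all lists, 31 of 488 medians under an alternative changed sign, 28 of them from a median within 0.1 of 0. Of 467 differences of named genes 0 did, which was largely fixed in advance and lends them no weight. These genes were picked for large differences, and another added constant or filter cannot change the sign of a single gene. No paired analysis was possible because each group is 1 library. Depth limits genes on few reads, such as MMP3, ISL1 and DLL1.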

Other observations

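Other genes of moderate or high level, chosen after their values were seen, also stood at least 1.5-fold apart. G0S2, an inhibitor of fat breakdown, had 317, 306 and 185 FPKM across shNC, sh1089-1 and sh1089-2, so sh1089-2 was the low library. LY6K, a surface protein of the Ly6 family, had 206, 147 and 96.8 FPKM, in steps downward. TNFRSF12A, a receptor of the TNF family, had 111, 144 and 91.0 FPKM, and SLC4A2, an anion exchanger, had 34.7, 43.3 and 26.5. In both, sh1089-1 was highest. TUBA1A, a tubulin with close relatives that can share reads, had 54.6, 52.9 and 88.2 FPKM and was high in sh1089-2 alone. PIM1, a kinase, had 47.4, 25.9 and 41.0 FPKM and DNER, a surface protein, 57.2, 33.1 and 50.7, with sh1089-1 the low library in each. Of the mitochondrial genes TFAM, which packs mitochondrial DNA, had 9.47, 10.03 and 5.84 FPKM and CYCS, cytochrome c, 22.5, 38.5 and 24.9.

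Several lists lay near the median of all genes. None of 12 measured genes of the RNA interference machinery passed 1.5-fold, and their median was 0.05. The unfolded protein response had none of 20 and a median of -0.01, hypoxia genes none of 16 and a median of -0.01, and 15 housekeeping genes a median of 0.00. Of 20 p53 targets, TP53INP1, a stress protein, was past 1.5-fold, at 3.98, 2.06 and 4.05 FPKM, and the list median was 0.01. ERBB3, a receptor tyrosine kinase, was the 1 of 24 genes of its list past 1.5-fold, at 8.74, 5.57 and 9.58 FPKM. IDH2, a mitochondrial source of NADPH, was the 1 of 13 of its list, at 25.1, 14.2 and 22.9. In these 3 genes sh1089-1 was the low library. Of 17 histone genes H1-4 was higher, on 21, 7 and 13 reads, and H2BC4 lower, at 10.8, 14.1 and 8.89 FPKM, with a list median of 0.02.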
